A study of Mus musculus with 6 samples.

Results

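The liver X receptors (LXR) are LXR-alpha (Nr1h3) and LXR-beta (Nr1h2). They and 8 genes listed as their sterol efflux and lipid-handling targets were followed in mouse bone-marrow-derived macrophages. Such macrophages are grown in culture from marrow precursors. The 10 genes were found by symbol among the 38124 genes of the deposited table, and all 10 were measured. The first group, 3 libraries, came from wild-type macrophages of C57BL mice exposed for 24 h to thymocytes made apoptotic with dexamethasone, a synthetic glucocorticoid, at a stated ratio of 1 to 40, with the apoptotic cells taken off before RNA was extracted. The other group, also 3 libraries, came from macrophages of the same source and genotype that were left untreated. Both groups were poly(A) RNA sequenced from stranded libraries, and the labels name each sample a biological replicate without saying whether replicates came from separate mice or cultures, so p-values measure the spread between these samples. Neither group received viable thymocytes or dexamethasone without cells. Exposure to dying cells, to thymocytes as such and to any dexamethasone carried over with them therefore cannot be told apart.

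LXRs are nuclear receptors that bind oxysterols and the cholesterol precursor desmosterol and sit on DNA as heterodimers with a retinoid X receptor (RXR). Their usual element on DNA, called DR4, is a direct repeat of the hexamer AGGTCA with 4 bases between the copies. In macrophages they are known for turning on genes that move cholesterol out of the cell and onto lipoprotein particles, and a macrophage that digests a dying cell takes on the cholesterol of that cell.

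The 10 genes did not move as a block. Apoc2, Smpdl3a and Apoe rose 2.07-fold to 3.51-fold with apoptotic thymocytes, and Abcg1 rose 1.14-fold. Pltp and Arl4c fell, to levels 3.29-fold and 2.38-fold below those of untreated cells, and the receptor gene Nr1h3 fell 1.41-fold. The other receptor gene Nr1h2, the cholesterol exporter gene Abca1 and Lpcat3 did not pass. In counts, 4 of 10 genes were higher, 3 were lower and 3 did not pass (limma on log2(RPKM + 1), adjusted p under 0.05). Over all 10173 tested genes 64.8% were called in either direction, 18.8% higher and 46.0% lower. The median log2 change of the 10 genes was 0.06, beside -0.13 for all tested genes. Ranges of the groups did not overlap for 8 of the 10 genes, against 69.6% of all tested genes. RPKM is a read number divided by gene length and by the reads of the library, so levels of different genes can be set side by side. In bulk RNA, fewer cells that express a gene and less of its RNA per cell cannot be told apart.

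**Figure D1:**
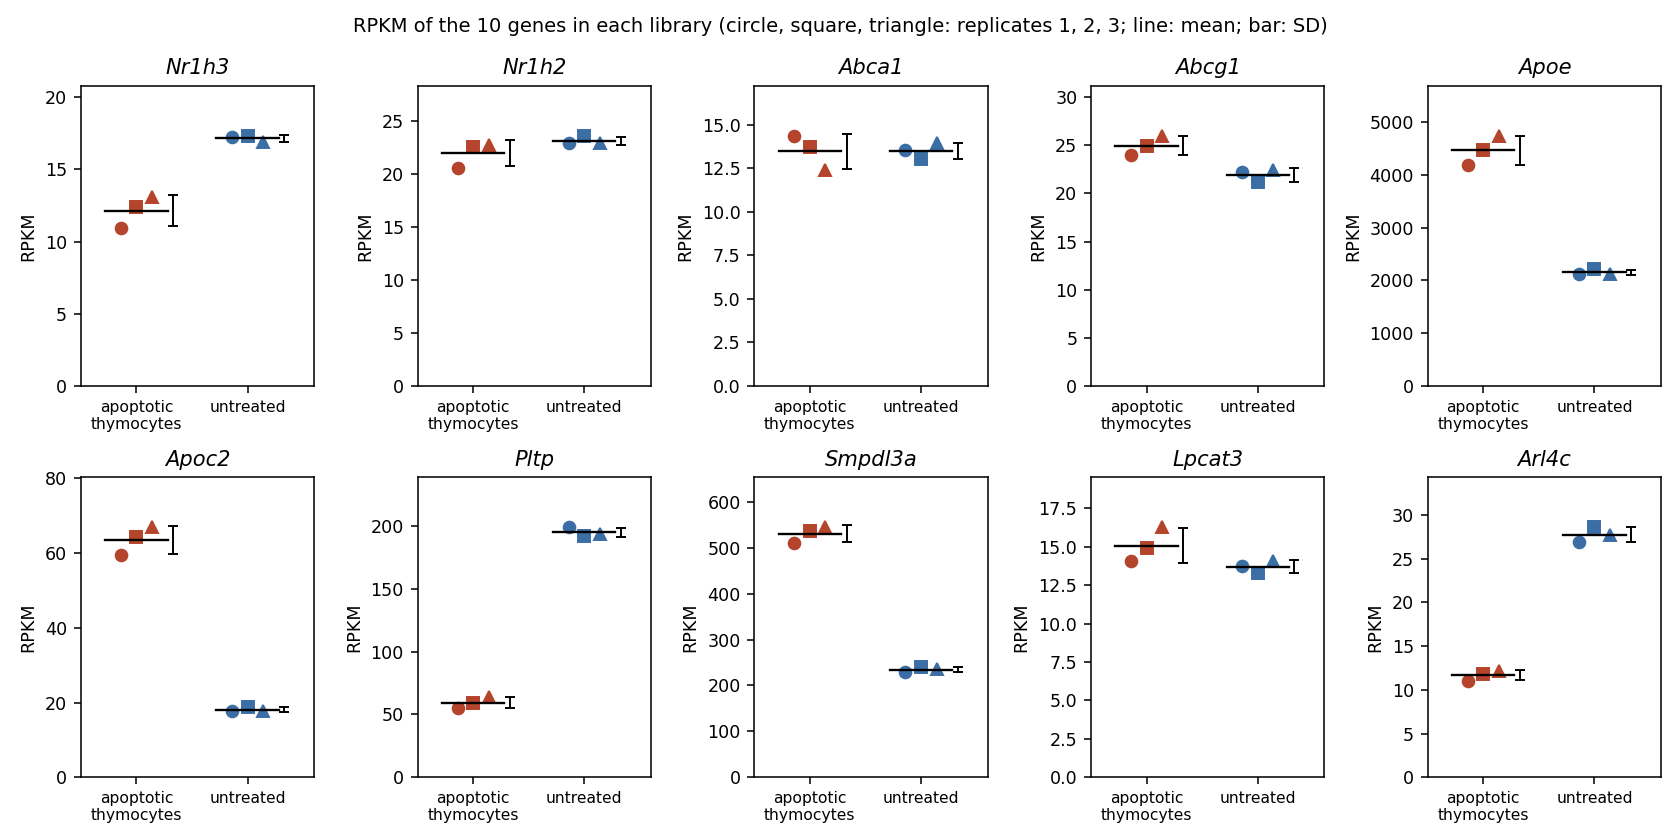
RPKM of each of the 10 genes (vertical axes from 0, scaled per gene) in the 3 libraries with apoptotic thymocytes (red) and the 3 untreated libraries (blue), with the mean as a line and the SD as a bar. Apoe, Apoc2 and Smpdl3a stand well above the untreated libraries, Pltp and Arl4c well below, and for Abca1 and Lpcat3 the groups overlap.

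As recovered from the values, RPKM had been scaled by 22782450 to 25933208 reads per library with apoptotic thymocytes and by 19315132 to 23907256 reads per untreated library. Reads behind the 10 genes were between 321 (Apoc2, untreated replicate 1) and 221060 (Apoe, apoptotic thymocytes replicate 3). Macrophage markers were led in all libraries by Lyz2, Lgals3 and Cd68. The summed level of 8 genes was 21999 to 24611 RPKM with apoptotic thymocytes and 18235 to 19152 RPKM in untreated libraries. Most of this sum was Lyz2, at a mean of 19418.5 RPKM with apoptotic thymocytes and 13388 RPKM untreated. Lyz2 was called higher and the other 7 lower, beside 18.8% and 46.0% of all tested genes. Itgam fell to 33.1 ± 0.695 RPKM with apoptotic thymocytes, against 119 ± 1.74 RPKM untreated. Fcgr1 fell to 7.43 ± 0.401 RPKM with apoptotic thymocytes, against 52.7 ± 2.54 RPKM untreated. By contrast, Adgre1 and Cd68 changed by only -0.13 and -0.16 on the log2 scale, near the -0.13 of the median tested gene. Among 16 thymocyte and T cell markers, 5 were listed at 0 in all libraries (Cd3e, Cd8b1, Rag2, Ptcra and Themis). The highest was Cd4 at 2.14 ± 0.155 RPKM with apoptotic thymocytes and 4.32 ± 0.165 RPKM untreated, and the other 15 summed to 0.185 to 0.289 RPKM with apoptotic thymocytes and 0.216 to 0.310 RPKM untreated. Summed erythroid markers were at 0.923 to 1.48 RPKM with apoptotic thymocytes and 0 to 0.0515 RPKM untreated, and neutrophil markers, with Ly6g at 0, at 1.03 to 1.43 RPKM with apoptotic thymocytes and 0.0755 to 0.116 RPKM untreated. B cell, dendritic cell and stromal markers summed to at most 1.95 RPKM with apoptotic thymocytes and 3.11 RPKM untreated. The part of these other cell types and of the marker shifts in the results below was not tested. Of the 10 genes, 9 were lowest in replicate 1 and highest in replicate 3 among the libraries with apoptotic thymocytes, whereas these shares over all tested genes were 42.7% and 43.5%. Abca1 ran the other way.

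The receptors come first. Nr1h3 (ENSMUSG00000002108, mm10 chromosome 2, 91184061 to 91202834, minus strand) encodes LXR-alpha, which in macrophages is itself inducible. Its level was 10.9, 12.4 and 13.1 RPKM in libraries with apoptotic thymocytes, against 17.2, 17.3 and 16.9 RPKM in untreated libraries. Every library with apoptotic thymocytes was below every untreated one. The log2 change was -0.47 (SE 0.0623, limma adjusted p = 0.000163), or -0.34 relative to the median gene. Nr1h2 (ENSMUSG00000060601, chromosome 7, 44549616 to 44553951, minus strand) encodes the broadly expressed LXR-beta. It stood at 20.5, 22.5 and 22.7 RPKM with apoptotic thymocytes and at 22.9, 23.6 and 22.8 RPKM untreated. The groups lay next to each other without overlap, and the log2 change of -0.07 did not pass (limma adjusted p = 0.214, 95% confidence interval -0.19 to 0.04). After median-of-ratios scaling its sign was positive, at 0.07, again without passing (limma adjusted p = 0.272).

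The receptors were also set against each other within a library. The ratio of Nr1h3 to Nr1h2 RPKM was 0.534, 0.549 and 0.577 with apoptotic thymocytes and 0.752, 0.735 and 0.738 untreated. Such a ratio does not depend on how the library is scaled, and every library with apoptotic thymocytes lay below every untreated one. The mean was 0.553 ± 0.0216 with apoptotic thymocytes and 0.741 ± 0.00907 untreated (SD, n = 3 each; exact two-sided permutation test, p = 0.10, the smallest this design allows).

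**Figure D2:**
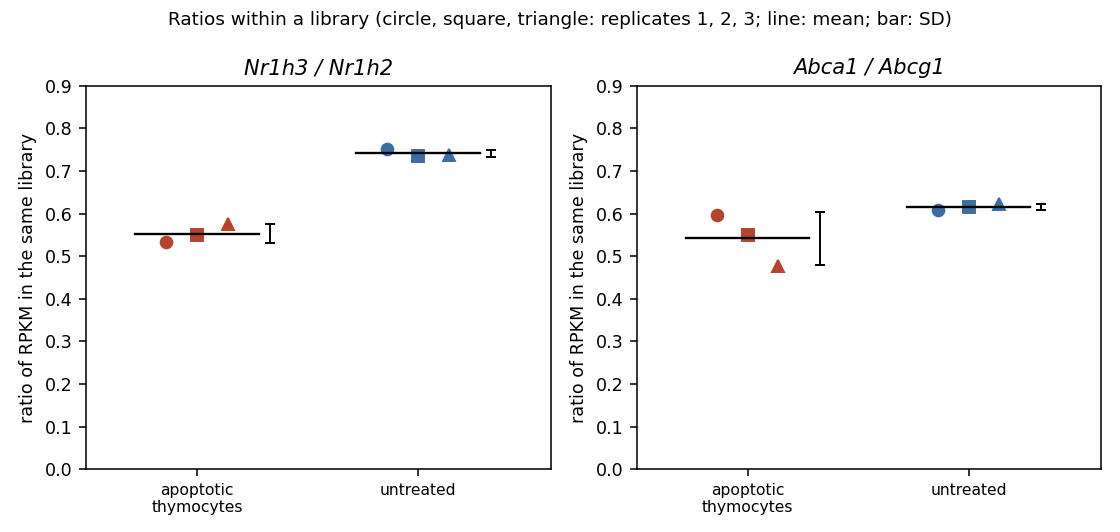
Ratio of Nr1h3 to Nr1h2 RPKM (left) and of Abca1 to Abcg1 RPKM (right) within each library, with apoptotic thymocytes (red) and untreated (blue); lines are means and bars are SD. The receptor ratio is near 0.553 in all libraries with apoptotic thymocytes and near 0.741 in untreated ones, while the exporter ratio spreads from 0.477 to 0.598 with apoptotic thymocytes and from 0.608 to 0.623 untreated.

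Partners and cofactors of the receptors were called in both directions. Of 12 genes for RXR partners and nuclear receptor cofactors, 11 were tested. Of these 2 were higher and 7 lower, beside 18.8% and 46.0% of all tested genes, and 2 did not pass. After median-of-ratios scaling, under which 59.9% of 10161 tested genes were called in either direction, 2 were higher and 4 lower, and 4 were lower without apoptotic thymocytes replicate 2 or without untreated replicate 3. Rxra, which encodes the RXR-alpha partner, rose 2.59-fold. It was at 40.9, 43.2 and 46.6 RPKM with apoptotic thymocytes and at 17.1, 16.5 and 16.8 RPKM untreated (log2 change 1.32, SE 0.0528, limma adjusted p = 4.55e-08). Rxrb was at 12.004 ± 0.746 RPKM with apoptotic thymocytes and 12.7 ± 0.382 RPKM untreated and did not pass (limma adjusted p = 0.230), and Rxrg was listed at 0 in every library. Tbl1x, which encodes a subunit of nuclear receptor corepressor complexes, fell to 6.68 ± 0.117 RPKM with apoptotic thymocytes, against 10.3 ± 0.107 RPKM untreated.

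Abca1 and Abcg1 encode the pair of membrane transporters through which macrophages hand cholesterol to lipid-poor apolipoprotein A-I and to mature high-density lipoprotein. Abca1 (ENSMUSG00000015243, chromosome 4, 53030787 to 53159895, minus strand) was at 14.4, 13.7 and 12.4 RPKM with apoptotic thymocytes and at 13.5, 12.997 and 13.9 RPKM untreated. Its groups overlapped, and the libraries with apoptotic thymocytes lay on both sides of the untreated ones. The log2 change was 0.00 at 2 decimals with a 95% confidence interval of -0.14 to 0.13 (SE 0.0593, limma adjusted p = 0.972). With upper-quartile scaling it was positive and passed (log2 change 0.16, limma adjusted p = 0.0383), and after median-of-ratios scaling it was 0.14 (limma adjusted p = 0.0744). Abcg1 (ENSMUSG00000024030, chromosome 17, 31057698 to 31115777, plus strand) was at 24.0, 24.9 and 26.0 RPKM with apoptotic thymocytes and at 22.2, 21.1 and 22.4 RPKM untreated. All libraries with apoptotic thymocytes were above all untreated ones, by a small step (log2 change 0.18, SE 0.0469, limma adjusted p = 0.00856).

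The ratio of Abca1 to Abcg1, looked at after the values were seen, was 0.598, 0.551 and 0.477 with apoptotic thymocytes and 0.608, 0.615 and 0.623 untreated. It was lower with apoptotic thymocytes in every library, by an amount that differed between replicates.

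The promoter of Abca1 is shown because it holds the only DR4-like element among the windows of the 10 genes. RefSeq promoter windows, 250 bases before to 50 after a start on GRCm38.p6, were at hand for 8 of the 10 genes in 11 windows, and none for Abcg1 and Smpdl3a. They were searched on both strands for GGTNA, any 5 bases and GGTNA, a relaxed form that every full element (AGGTCA, any 4 bases, AGGTCA) also meets. Of the 11 windows 1 matched, against 0.718% of the 32851 windows of all genes. The full element was in 0 of the 11 windows and in 5 of all windows. The 200 bases before the Abca1 start (chr4:53159896-53160095, minus strand, written in the direction of the gene) follow, with the element in capitals.
Abca1 upstream: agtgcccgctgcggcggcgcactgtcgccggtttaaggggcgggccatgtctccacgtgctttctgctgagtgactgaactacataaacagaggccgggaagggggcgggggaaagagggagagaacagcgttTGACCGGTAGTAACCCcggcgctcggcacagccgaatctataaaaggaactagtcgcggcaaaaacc

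The element ends 52 bases before the start and is read on the strand opposite to the gene. Windows of 11 of the 17 other LXR targets below were searched in the same way, and those of Srebf1 and Fasn matched. The 3 elements are written on their own strand, with capitals where a base equals the full element.
Abca1 (chr4:53159947-53159962): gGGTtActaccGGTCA
Fasn (chr11:120824757-120824772): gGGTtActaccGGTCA
Srebf1 (chr11:60210638-60210653): gGGTtActggcGGTCA

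Each of the 3 equals the full element at 9 of its 12 fixed bases and departs from it by A1G, C5T and A11C, counted from its 5′ end with the base of the full element first. Abca1 and Fasn share the spacer as well. Abca1 did not pass, and both other genes fell. The Srebf1 element lies inside the annotated span of its gene (60199089 to 60222581), before an internal start. RPKM is given per gene, so transcripts from that start were not measured alone. Fasn, the fatty acid synthase gene, fell to 5.35 ± 0.545 RPKM with apoptotic thymocytes, against 12.4 ± 0.619 RPKM untreated (log2 change -1.08, limma adjusted p = 1.10e-06). Srebf1, the gene of the lipogenic factor SREBP-1, was at 7.84, 8.64 and 9.01 RPKM with apoptotic thymocytes and at 10.7, 11.6 and 13.5 RPKM untreated (log2 change -0.44, limma adjusted p = 0.00125). A match describes letters in a window and is not a measured binding site.

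The apolipoprotein genes rose. Apoe (ENSMUSG00000002985, chromosome 7, 19696109 to 19699166, minus strand) encodes apolipoprotein E, which macrophages secrete as an acceptor of cholesterol. It was already among the most abundant RNAs, ranked 17 of 10173 tested genes by RPKM in untreated cells, and it ranked 11 with apoptotic thymocytes. Its level was 4180, 4473 and 4741 RPKM with apoptotic thymocytes and 2130, 2212 and 2115 RPKM untreated. The groups were far apart (log2 change 1.05, SE 0.0647, limma adjusted p = 8.35e-07). Apoc2 (ENSMUSG00000002992, chromosome 7, 19671579 to 19681423, minus strand) encodes apolipoprotein C-II, the cofactor of lipoprotein lipase. It had the largest rise of the 10, to 59.5, 64.2 and 66.9 RPKM with apoptotic thymocytes, against 17.8, 18.8 and 17.7 RPKM untreated. This was a log2 change of 1.76 (SE 0.0529, limma adjusted p = 8.15e-09), exceeded by 0.806% of tested genes.

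Both genes belong to a cluster that runs Apoc2, Apoc4, Apoc1, Apoe along chromosome 7, and the whole cluster was read, with the genes beside it, after the first values were seen. Apoc1, which encodes apolipoprotein C-I, rose to 3.30, 2.53 and 2.69 RPKM with apoptotic thymocytes, against 0.289, 0.312 and 0.161 RPKM untreated (log2 change 1.61, limma adjusted p = 3.32e-07). These rest on few reads, 46, 31 and 34 with apoptotic thymocytes and 3, 4 and 2 untreated. Apoc1 met the filter on low values only through the libraries with apoptotic thymocytes. Its call as higher follows in part from that filter and is no separate support for a rise of the cluster. Apoc4 was too low to be tested, at 0.749 ± 0.302 RPKM with apoptotic thymocytes and 0.0311 ± 0.0539 RPKM untreated. The annotated span of Apoc2 covers Apoc4 on the same strand, so their reads may be shared, but Apoc4 had 6 to 12 reads per library with apoptotic thymocytes beside 1364 to 1469 of Apoc2. The nearest genes on each side of the cluster did not pass. Clptm1 was at 41.4 ± 3.34 RPKM with apoptotic thymocytes and 38.1 ± 1.15 RPKM untreated (log2 change 0.11, limma adjusted p = 0.130). Tomm40 was at 9.66 ± 0.313 RPKM with apoptotic thymocytes and 8.89 ± 0.134 RPKM untreated (log2 change 0.11, limma adjusted p = 0.0645). Its groups did not overlap. Both changes lay above the -0.13 of the median tested gene, so not passing does not show that these neighbours were unchanged. Further out beyond Tomm40, Pvrl2 fell to 1.87 ± 0.108 RPKM with apoptotic thymocytes, against 2.58 ± 0.142 RPKM untreated (limma adjusted p = 0.00126).

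**Figure D3:**
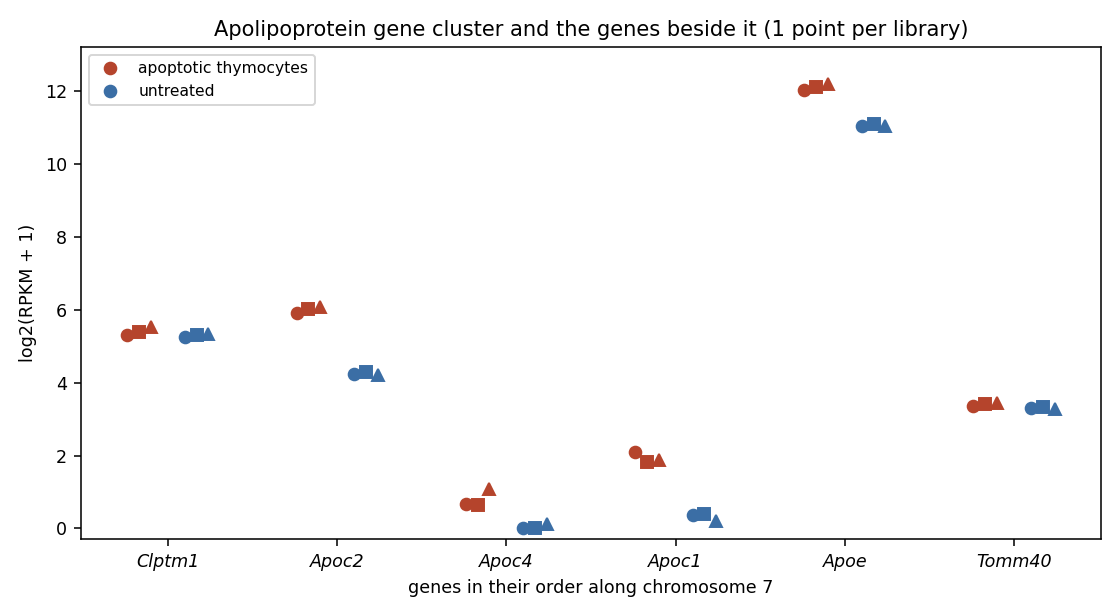
Level as log2(RPKM + 1) of the apolipoprotein cluster genes and the neighbours Clptm1 and Tomm40, in gene order, 1 point per library, with apoptotic thymocytes (red, left) and untreated (blue, right). Apoc2, Apoc1 and Apoe stand higher with apoptotic thymocytes, while the neighbours Clptm1 and Tomm40 did not pass.

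Unlike the apolipoprotein genes, the lipid transfer gene fell. Pltp (ENSMUSG00000017754, chromosome 2, 164839518 to 164857711, minus strand) encodes phospholipid transfer protein, a secreted protein that moves phospholipid between lipoprotein particles. It was at 54.8, 59.3 and 63.9 RPKM with apoptotic thymocytes and at 199, 192 and 194 RPKM untreated. The fall separated the groups widely (log2 change -1.70, SE 0.0572, limma adjusted p = 1.58e-08), and 1.64% of tested genes fell further. The end of Pltp overlaps Ctsa on the opposite strand, and Ctsa was higher, at 286 ± 9.41 RPKM with apoptotic thymocytes and 242 ± 2.79 RPKM untreated. The ratio of Apoe to Pltp RPKM, also taken after the values were seen, was 76.3, 75.4 and 74.2 with apoptotic thymocytes and 10.7, 11.5 and 10.9 untreated.

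Smpdl3a (ENSMUSG00000019872, chromosome 10, 57794335 to 57811830, plus strand) encodes a secreted acid sphingomyelinase-like phosphodiesterase. The gene is known as an LXR target in human macrophages, and whether LXR controls it in these mouse cells was not tested. Smpdl3a was at 511, 537 and 545 RPKM with apoptotic thymocytes and at 229, 240 and 235 RPKM untreated (log2 change 1.17, SE 0.0459, limma adjusted p = 3.88e-08). Its relatives did not all follow. Smpdl3b fell to 0.687 ± 0.0844 RPKM with apoptotic thymocytes, against 2.56 ± 0.114 RPKM untreated (limma adjusted p = 5.32e-07). Smpdl3b met the filter on low values only through the untreated libraries, so its call as lower follows in part from that filter. The lysosomal sphingomyelinase gene Smpd1 rose to 16.02 ± 1.18 RPKM with apoptotic thymocytes, against 11.8 ± 0.329 RPKM untreated (limma adjusted p = 0.000245).

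Lpcat3 (ENSMUSG00000004270, chromosome 6, 124663027 to 124704418, plus strand) encodes an enzyme that puts polyunsaturated fatty acids into phospholipids. It was at 14.1, 14.9 and 16.3 RPKM with apoptotic thymocytes and at 13.8, 13.3 and 14.1 RPKM untreated. The groups overlapped narrowly, and the log2 change of 0.13 did not pass (SE 0.0577, limma adjusted p = 0.0822, 95% confidence interval -0.00470 to 0.26). Median-of-ratios scaling gave a pass as higher (log2 change 0.27, limma adjusted p = 0.00408), and without apoptotic thymocytes replicate 1 it passed too (log2 change 0.17, limma adjusted p = 0.0193). Enzymes of related reactions were called in both directions. Lpcat2, which also makes platelet-activating factor, fell to 4.79 ± 0.255 RPKM with apoptotic thymocytes, against 16.9 ± 1.05 RPKM untreated (log2 change -1.63, limma adjusted p = 2.43e-08). Lpcat1 and Lpcat4 fell by 0.29 and by 0.32 on the log2 scale, calls that were lost with median-of-ratios scaling (limma adjusted p = 0.0574 and 0.0725). Mboat7 rose slightly, to 8.65 ± 0.214 RPKM with apoptotic thymocytes, against 7.43 ± 0.279 RPKM untreated.

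Arl4c (ENSMUSG00000049866, chromosome 1, 88673125 to 88702221, minus strand) encodes a small GTPase of vesicle traffic that is known to help bring cholesterol to the cell surface. It was at 11.0, 11.8 and 12.1 RPKM with apoptotic thymocytes and at 26.8, 28.6 and 27.7 RPKM untreated. No library with apoptotic thymocytes came near the untreated ones (log2 change -1.19, SE 0.0498, limma adjusted p = 6.31e-08). Its relatives were low in these cells. Arl4d fell to 0.660 ± 0.0420 RPKM with apoptotic thymocytes, against 1.07 ± 0.0619 RPKM untreated. Like Smpdl3b, Arl4d met the filter on low values only through the untreated libraries, so its call as lower follows in part from that filter. Arl4a was at 1.13 ± 0.0606 RPKM with apoptotic thymocytes and 1.30 ± 0.133 RPKM untreated and did not pass. Among the transporter relatives Abca2 fell to 4.77 ± 0.0815 RPKM with apoptotic thymocytes, against 8.44 ± 0.319 RPKM untreated, and Abcg2 was at 2.30 ± 0.113 RPKM with apoptotic thymocytes and 2.38 ± 0.287 RPKM untreated and did not pass. In all, 2 of the 10 relatives were higher and 6 lower, beside 18.8% and 46.0% of all tested genes. With median-of-ratios scaling 2 were higher and 3 lower, beside 30.2% and 29.8% of all tested genes, and without untreated replicate 3 also 3 were lower. Part of this drop comes from the filter on low values. Arl4d did not meet it with median-of-ratios scaling, and neither Arl4d nor Smpdl3b met it without any 1 untreated library.

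**Figure D4:**
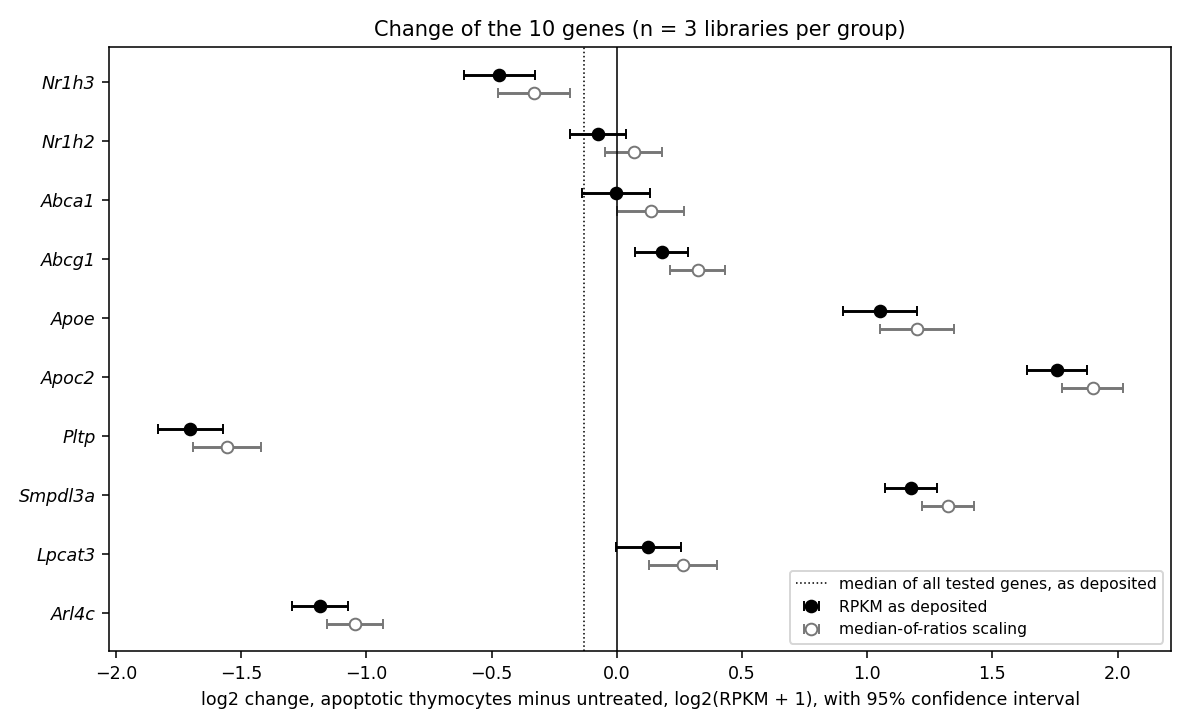
Log2 change (horizontal axis, apoptotic thymocytes minus untreated, log2(RPKM + 1)) of the 10 genes with its 95% confidence interval, for RPKM as deposited (black) and after median-of-ratios scaling (grey). The dotted line is the median tested gene at -0.13. Intervals of Nr1h2, Abca1 and Lpcat3 cross 0 as deposited, and the other 7 do not.

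The level of all genes shifted with the scaling of the libraries, which touches the small changes above. As deposited, the median over all tested genes was -0.13 on the log2 scale. With median-of-ratios scaling 30.2% of tested genes were higher and 29.8% lower, in place of 18.8% and 46.0%. Relative to the median gene the log2 changes were 1.89 for Apoc2, 1.30 for Smpdl3a, 1.18 for Apoe, 0.31 for Abcg1, 0.26 for Lpcat3, 0.13 for Abca1, 0.06 for Nr1h2, -0.34 for Nr1h3, -1.05 for Arl4c and -1.57 for Pltp. The 7 called genes kept their direction and call under both scalings.

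Other LXR target genes were called in both directions too. Of 17 genes, 13 were tested, with a median log2 change of -0.15. Of these 5 were higher and 7 lower, beside 18.8% and 46.0% of all tested genes, and 1 did not pass. Without any 1 library with apoptotic thymocytes 3 of these genes were higher, since Apoc1 and Cd38 then no longer met the filter on low values. Both met it only through the libraries with apoptotic thymocytes, so their calls as higher follow in part from the filter. The 3 smallest p-values belonged to Mertk, Lpl and Tgm2. Mertk, the receptor tyrosine kinase for apoptotic cells, was at 94.98 ± 4.21 RPKM with apoptotic thymocytes and 21.9 ± 0.415 RPKM untreated (log2 change 2.06, limma adjusted p = 1.22e-09). Lpl, the lipoprotein lipase gene, fell to 80.8 ± 7.29 RPKM with apoptotic thymocytes, against 625 ± 11.97 RPKM untreated (log2 change -2.94, limma adjusted p = 1.22e-09). Its cofactor gene Apoc2, described above, rose. Tgm2, a transglutaminase gene, fell to 20.97 ± 1.42 RPKM with apoptotic thymocytes, against 75.2 ± 0.537 RPKM untreated. The remaining higher genes were Apoc1, Cd38, Cd5l and Mylip, and the remaining lower genes were Scd1, Scd2, Fasn, Srebf1 and Acaca, which serve fatty acid synthesis, desaturation or their control. Scd1 met the filter on low values only through the untreated libraries. The call of Acaca, at a log2 change of -0.15, was lost in 8 of the 12 alternatives in which it could be fitted, with median-of-ratios scaling among them (log2 change -0.03, limma adjusted p = 0.672).

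Genes of 2 oxysterol enzymes were called lower, as were 46.0% of all tested genes. Both log2 changes were -0.27, beside -0.13 for the median tested gene. Cyp27a1, the sterol 27-hydroxylase gene, fell to 12.3 ± 0.117 RPKM with apoptotic thymocytes, against 15.1 ± 0.670 RPKM untreated. Hsd3b7, an oxysterol-converting enzyme of bile acid synthesis, fell to 12.5 ± 0.742 RPKM with apoptotic thymocytes, against 15.3 ± 0.437 RPKM untreated. Both calls were lost with upper-quartile scaling (limma adjusted p = 0.0778 and 0.101). Ch25h, the cholesterol 25-hydroxylase gene, was too low to be tested, at 0.0413 ± 0.0188 RPKM with apoptotic thymocytes and 0.378 ± 0.0365 RPKM untreated.

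Of 10 other sterol transport genes, 6 were tested, with 2 higher and 4 lower, beside 18.8% and 46.0% of all tested genes. Only 1 of the 6 was higher without untreated replicate 2. Scarb1, the gene of the lipoprotein receptor SR-BI, fell to 8.92 ± 0.695 RPKM with apoptotic thymocytes, against 20.4 ± 0.645 RPKM untreated (log2 change -1.11, limma adjusted p = 2.80e-07). Gramd1a and Gramd1b, genes of Aster proteins that carry cholesterol from the plasma membrane to the endoplasmic reticulum, fell by 0.51 and by 0.46 on the log2 scale. Genes of the sterol exit from lysosomes were split, with Npc1 higher, at 57.1 ± 2.43 RPKM with apoptotic thymocytes and 41.1 ± 1.14 RPKM untreated, and Npc2 lower, at 304 ± 17.7 RPKM with apoptotic thymocytes and 390 ± 13.97 RPKM untreated.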

How the data were processed

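The deposited table gave RPKM for 38124 genes in 6 libraries, with 1 column per library, per the file headers. Per the labels, the mouse build was GRCm38 (mm10). The aligner, counting program, use of strand and treatment of reads that match several genes are not given in the sources used here, so values of overlapping genes and of genes with close copies are uncertain. Each column matched 1 sample title.

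A gene was tested if 3 or more libraries held it at 1 RPKM or above. The test was limma 3.58.1, run in R 4.3.3 on log2(RPKM + 1) with group as sole covariate and variance allowed to follow mean level. This scale understates changes near 1 RPKM. Benjamini-Hochberg adjustment ran over all 10173 tested genes. The fit was tested on simulated data. The SE is limma's moderated standard error, and ± is the SD of 3 libraries. Folds are ratios of mean RPKM. Library totals and reads were recovered from RPKM and gene lengths. With GENCODE M21 lengths, 49.6% to 50.0% of values came out whole within 0.001 reads, and for other listed genes a length was searched that made all 6 values whole. Reads per gene limit the precision, and duplicate reads cannot be told apart here. Matching gene IDs to GENCODE M21 found 36345 of 38124. Sequences are RefSeq's on GRCm38.p6.

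The 10 genes and the lists were chosen with earlier results of these data known, so no list was tested as a set. Named beside the 10 genes were up to 3 tested genes with the smallest p of each pathway list, all relatives of the 10 genes, and leading markers. Srebf1, Fasn, Itgam, Fcgr1, Adgre1, the markers at 0, Apoc1, Apoc4, Rxrb, Rxrg, Ch25h, Npc1, Npc2, the chromosome 7 and overlapping neighbours and the genes listed without values were named after their values were seen. Of 118 list entries, 118 were found, 3 of them by identifier. Alternatives were another pseudocount (0.1), no filter, a filter at 5 RPKM, 2 scalings, no intensity trend, the replicate number as a block, and each library left out. Some genes of the pathway lists are not reported here.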

Additional observations from a re-analysis of the deposited data

How the results depend on the processing

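Nr1h3, Abcg1, Apoe, Apoc2, Pltp, Arl4c and Smpdl3a kept direction and call in all 13 alternatives. For Lpcat3 both scalings gave a pass as higher, at a log2 change of 0.27 (median-of-ratios) and 0.29 (upper-quartile). Without 1 library it ran from 0.073 to 0.17 and passed without apoptotic thymocytes replicate 1. Abca1 turned positive and passed with upper-quartile scaling (0.16). These scalings raise every log2 change. Of all tested genes, 3064 were higher and 3025 lower with median-of-ratios scaling and 3280 and 2814 with upper-quartile scaling, against 1915 and 4679. Among cofactors, Gps2, called lower as deposited, stood at 0.0038 and 0.028 under these scalings, and Ncoa2 at 0.016 with upper-quartile scaling. Why the median tested gene fell in the values as deposited was not tested. In place of 7 cofactor genes, 4 were lower without apoptotic thymocytes replicate 2 or untreated replicate 3.

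Replicate numbers are shared between the groups, and the labels do not say whether same-numbered libraries were made together. Deviations of same-numbered libraries correlated at 0.20, -0.03 and -0.16, which cannot settle whether they were paired. With the replicate block 1904 genes were higher and 4627 lower, the 10 genes kept their calls, Abcg1 was at 0.18, and the calls of Ncoa2 and Acaca were lost. Libraries of replicate 1 correlated best with their own number, and those of replicates 2 and 3 did not. Few reads lay behind the untreated values of Apoc1 (3, 4 and 2) and Cd38 (1, 4 and 2), which limits their precision.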
